A study of Sus scrofa with 3 samples.

Results

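The heat shock proteins are molecular chaperones, and the 10 genes described here are the transcription factor HSF1, 5 cytosolic chaperones or co-chaperones that heat shock strongly induces (HSPH1, HSPB1, DNAJB1, DNAJA1 and HSP90AA1), 2 cytosolic chaperones kept at a high basal level (HSPA8 and HSP90AB1) and the chaperonin pair HSPD1 and HSPE1. They were chosen by gene symbol among the 34579 features of the liver tables. Of the 10 genes, 8 were found under their own symbol, and 2 under a synonym given by RefSeq, HSPB1 as HSP27 and HSP90AB1 as HSPCB. The set is labelled cytosolic, which holds for the chaperones of the first 2 kinds. HSPD1 and HSPE1, however, form the folding chamber of the mitochondrial matrix, and they were kept apart from the cytosolic genes throughout.

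In unstressed cells HSF1 is held inactive, in part by the chaperones themselves. When unfolded proteins accumulate, HSF1 forms trimers, binds heat shock elements in promoters and raises the transcription of chaperone genes. HSP70 proteins such as HSPA8 hold and release unfolded segments, J-domain proteins (the DNAJ genes) bring the clients, HSP110 proteins such as HSPH1 exchange the bound nucleotide, and HSP90 proteins finish the folding of kinases and steroid hormone receptors, the androgen receptor among them. The liver, which makes most plasma proteins, carries a large folding load.

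Liver RNA came from male Chinese Wuzhishan miniature pigs, which the labels give as 6 to 7 months old and the study as that age when obtained, before the weeks of acclimation and diet. All were fed the high-fat and high-cholesterol (HFC) diet with lard, egg yolk powder, cholesterol and sodium cholate. IM pigs were intact and sham-operated, CM pigs were surgically castrated, and CMT pigs were castrated and injected weekly with testosterone propionate from the day of castration. The comparison of CM with IM asks what castration changed, and that of CMT with CM what testosterone replacement changed. Each group was 1 RNA-Seq library of a pool. The sample labels give 3 pigs per pool, while the study's methods describe larger groups and do not say how many pigs were pooled, so the pool size is in doubt. With 1 library per group, differences between pigs were not measured and no test was possible.

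The deposited values are FPKM, read numbers divided by transcript length and by a constant for each library. An mRNA feature was counted as past the threshold when its FPKM was at least 1 in all 3 libraries and its ratio at least 1.5-fold. All 10 genes passed the FPKM minimum. The number of reads behind a value could be recovered for 95.1% of the 24277 features with a value above 0. The totals were 32197628 (IM), 36126730 (CM) and 25419901 (CMT). Intervals given with a ratio are 95% exact binomial (Clopper-Pearson) intervals on these reads and cover counting error only, not differences between pigs. Scaling the libraries to equal recovered reads would add 0.28 to every log2 ratio of CM to IM, take 0.24 from every log2 ratio of CMT to CM and add 0.042 to those of CMT to IM. The medians over all tested mRNA features in the deposited values were -0.020, 0.013 and -0.0072. Directions were therefore checked under 4 other scalings. Beside the deposited values these were median ratio, upper quartile, equal FPKM column sums and equal recovered reads. Positions are not given, since the annotation used for names is of another genome build than the files.

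In these livers HSPH1 was higher in CM than in IM, HSPB1 was higher in CMT than in either other library, and HSP90AA1 and HSPA8 were lowest in IM and, in the deposited values, highest in CMT. HSP90AB1 was lowest in CMT, so that the balance between the HSP90 genes moved. HSF1 differed by at most 1.20-fold between libraries. In the deposited values 7 of the 10 genes were highest in CMT and 6 were lowest in CM, but with equal recovered reads 5 were highest in CMT and 1 was lowest in CM. The matching shares of all mRNA features were not taken, so these counts are not shown to be particular to the 10 genes. In a mixed tissue, fewer cells of a type and less RNA per cell cannot be told apart.

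**Figure D1:**
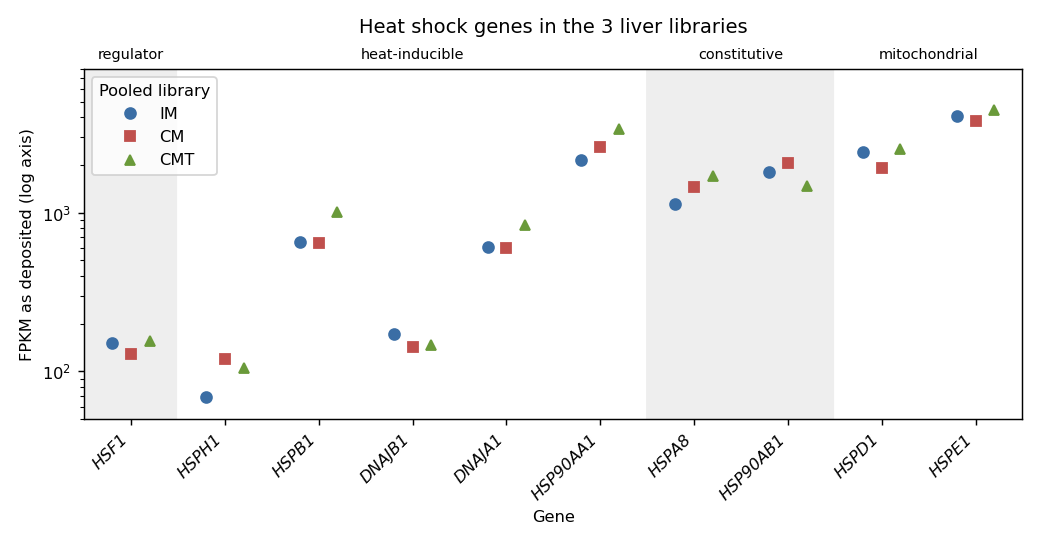
FPKM as deposited (log axis) of the 10 heat shock genes in the pooled liver libraries of IM, CM and CMT pigs, 1 point per library and no error bars, since each group has 1 library. Shading separates the regulator, the heat-inducible, the constitutive and the mitochondrial genes. HSPE1 was the highest of the 10 in every library (3783 to 4429) and HSPH1 the lowest (69.2 to 120.4).

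HSF1, the regulator, had an FPKM of 150.7 (IM), 129.5 (CM) and 155 (CMT), from 392, 459 and 328 reads. It was lowest in CM, and IM and CMT lay close together. The level in CM was 1.16-fold lower than in IM (interval 1.01 to 1.33), a direction that turned when the libraries were scaled to equal reads or equal column sums. CMT was 1.20-fold above CM (1.04 to 1.38) and 1.03-fold above IM (0.886 to 1.20), and neither ratio reached 1.5-fold. Both stayed above 1 under all 5 scalings, but only barely under some. The log2 ratio of CMT to CM was 0.013 with equal column sums and 0.022 with equal reads. That of CMT to IM was 0.0062 with upper quartile scaling. HSF1 activity is set mainly by trimer formation and phosphorylation, which RNA levels do not show. The other heat shock factors and the HSF1-binding protein HSBP1 gave 3 measured genes, HSF2, HSF4 and HSBP1, named here after their values were seen. Their median log2 ratios were 0.46 (CM to IM), -0.068 (CMT to CM) and 0.41 (CMT to IM), and 0 of the 3 passed 1.5-fold in any comparison of the deposited values. The share of all mRNA features tested that passed was 23.2%, 25.7% and 16.8% in the same order. Of the 3, HSF2 came nearest to the threshold, at 1.49-fold in CM versus IM. The 4 other scalings add 0.022 to 0.28 to every log2 ratio of CM to IM, which puts HSF2 past it. Equal column sums or equal reads also put HSF4 past it, higher in CM versus IM and lower in CMT versus CM.

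Among the heat-inducible genes, HSPH1 is the HSP110 protein that serves HSP70 as a nucleotide exchange factor. Its FPKM was 69.2, 120.4 and 105 in IM, CM and CMT. IM stood below both castrated groups. CM was 1.74-fold higher than IM (1.49 to 2.04, from 550 and 232 reads), and CMT was 1.51-fold higher than IM (1.27 to 1.81), just past the threshold. CMT was 1.15-fold lower than CM, with an approximate interval of 0.996 to 1.33 that barely includes no difference. HSPH1 was the least abundant of the 10 genes, at rank 6532 of the 22945 mRNA features in IM, 4501 in CM and 5087 in CMT.

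HSPB1 encodes HSP27, a small heat shock protein that binds unfolded proteins without ATP and protects actin filaments. Its FPKM was 656 (IM), 644 (CM) and 1010.2 (CMT). IM and CM were nearly equal, and CMT stood above both. CMT was 1.57-fold higher than CM and 1.54-fold higher than IM. The ratio of CMT to CM fell short of 1.5-fold under upper quartile, column sum and read scaling, and stayed above 1 under all 5 scalings. For CM against IM the ratio was 0.981, and its direction turned with the scaling. The length behind the HSPB1 values was longer than the gene in RefSeq, so that its read number could be overstated and no interval is given. A second feature, which the study annotates as HSPB1-like (LOC100624812), also had its highest value in CMT, with an FPKM of 718, 660 and 1073 in IM, CM and CMT. Its CMT value was 1.63-fold above CM and 1.495-fold above IM, just under the threshold. Its ratio to HSPB1 was 1.09, 1.02 and 1.06. Reads from these features may be shared, and how the authors' counting placed such reads is not given in the sources used here.

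DNAJB1 (HSP40) delivers clients to HSP70 and is among the strongest HSF1 targets in heat-shocked cells. Its FPKM was 173 (IM), 143 (CM) and 146 (CMT). IM was the highest, and the castrated groups lay close together. CM was 1.21-fold lower than IM (1.08 to 1.36) as deposited, while scaling to equal recovered reads put its log2 ratio at 0.0064. CMT was 1.19-fold lower than IM (1.04 to 1.35), a direction that held under all 5 scalings. Between CMT and CM the ratio was 1.02 (0.895 to 1.16), and its sign depended on the scaling.

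DNAJA1, another J-domain partner of HSP70, had an FPKM of 608, 595 and 833 in IM, CM and CMT. The order was that of HSPB1, with CMT apart from the other libraries. CMT was 1.40-fold higher than CM (1.30 to 1.51) and 1.37-fold higher than IM (1.26 to 1.48), under the threshold in each comparison. CM to IM was 0.978 (0.905 to 1.06), with a sign that changed with the scaling.

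HSP90AA1 is the stress-inducible form of cytosolic HSP90. Its FPKM was 2134 (IM), 2602 (CM) and 3386 (CMT), and each library lay apart from the next. CM was 1.22-fold above IM (1.16 to 1.28), CMT was 1.30-fold above CM (1.24 to 1.36), and CMT was 1.59-fold above IM (1.51 to 1.67). These directions held under all 5 scalings. HSP90AA1 moved from rank 489 of the mRNA features in IM to rank 375 in CM and 343 in CMT.

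Of the constitutive genes, HSPA8 encodes HSC70, the housekeeping HSP70 of the cytosol, which also delivers proteins to lysosomes. Its FPKM was 1131, 1447 and 1707 in IM, CM and CMT. The order of the libraries was that of HSP90AA1. CM was 1.28-fold above IM, and CMT was 1.51-fold above IM, just past the threshold. CMT was 1.18-fold above CM, a direction that turned under read or column sum scaling. No transcript length of up to 10000 bases made the HSPA8 values whole read numbers, so no interval is given, and reads shared with the many processed copies of this gene in mammalian genomes could not be told apart.

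HSP90AB1 encodes the constitutive cytosolic HSP90. Its FPKM was 1811 (IM), 2048 (CM) and 1471 (CMT), so that the order differed from that of HSPA8. CM was 1.13-fold above IM (1.11 to 1.16). CMT was 1.39-fold lower than CM (1.36 to 1.43) and 1.23-fold lower than IM (1.20 to 1.27). The 3 directions held under all 5 scalings, and HSP90AB1 passed 1.5-fold below CM in CMT when the libraries were scaled to equal reads or column sums.

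The HSP90 genes encode closely similar proteins, and the ratio between them within a library does not depend on the scaling. HSP90AA1 was 1.18 times HSP90AB1 in IM, 1.27 times in CM and 2.30 times in CMT. IM and CM lay close together, and CMT stood apart. HSP90AA1 made up 54.1% (IM), 56.0% (CM) and 69.7% (CMT) of the summed FPKM of the pair. The ratio changed 1.81-fold from CM to CMT (1.72 to 1.91), 1.95-fold from IM to CMT (1.84 to 2.07) and 1.08-fold from IM to CM (1.02 to 1.14). The sum of the pair was 3945, 4650.2 and 4858 in IM, CM and CMT. Reads that match both genes could be counted for either, and the split was not tested.

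**Figure D2:**
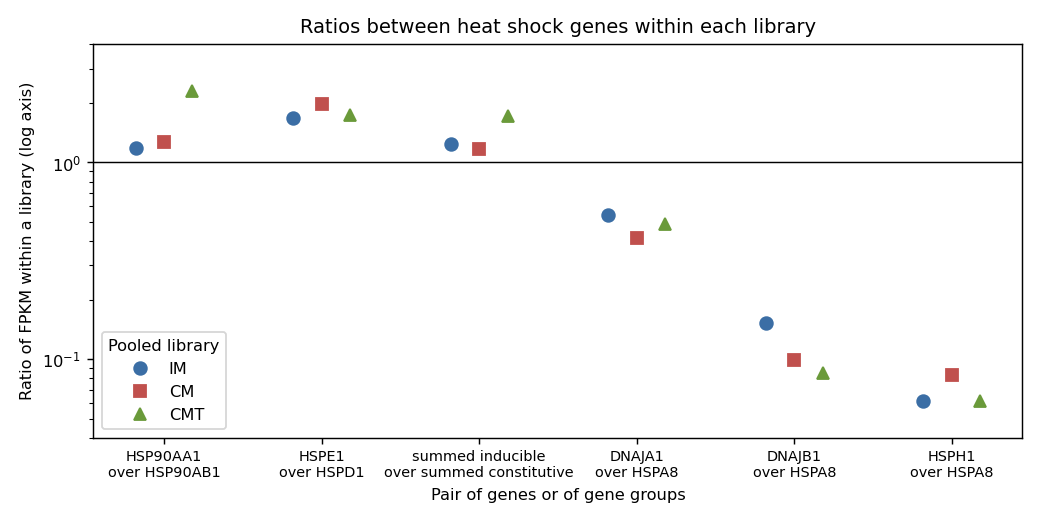
Ratios of FPKM between heat shock genes within each pooled library (log axis), 1 point per library, which do not change with the scaling of the libraries. The ratio of HSP90AA1 to HSP90AB1 was 1.18 (IM), 1.27 (CM) and 2.30 (CMT), while HSPE1 over HSPD1 stayed between 1.67 and 1.99.

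The same kind of ratio set the HSP70 partners against HSPA8. HSPH1 over HSPA8 was 0.0612 (IM), 0.0832 (CM) and 0.0613 (CMT), so that IM and CMT were alike and CM was higher. DNAJB1 over HSPA8 was 0.153 (IM), 0.0990 (CM) and 0.0854 (CMT), highest in IM. DNAJA1 over HSPA8 was 0.538, 0.411 and 0.488 in IM, CM and CMT, lowest in CM. DNAJA1 was the more abundant of the J-domain genes in each library.

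The mitochondrial chaperonin HSPD1 (HSP60) and its lid HSPE1 (HSP10) are transcribed from a shared promoter region, and heat shock induces both. HSPD1 had an FPKM of 2412 (IM), 1903 (CM) and 2527 (CMT). CM was below the other libraries. The level in CM was 1.27-fold lower than in IM (1.22 to 1.31), CMT was 1.33-fold above CM (1.28 to 1.38), and CMT to IM was 1.05 (1.01 to 1.09), all under 1.5-fold and in the same direction under all 5 scalings. With equal reads, however, the log2 ratio of CM to IM for HSPD1 was only -0.062. HSPE1 had an FPKM of 4036, 3783 and 4429 in IM, CM and CMT, with the same order of libraries and smaller ratios. CM was 1.07-fold below IM (1.02 to 1.12) and CMT 1.17-fold above CM (1.11 to 1.23), and these directions turned with the scaling. CMT was 1.10-fold above IM (1.04 to 1.16). HSPE1 was 1.67 times HSPD1 in IM, 1.99 times in CM and 1.75 times in CMT, a 1.19-fold change of the ratio from IM to CM (1.12 to 1.26). Together the pair held, of the summed FPKM of the 10 genes, 48.9%, 42.4% and 44.1% in IM, CM and CMT.

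**Figure D3:**
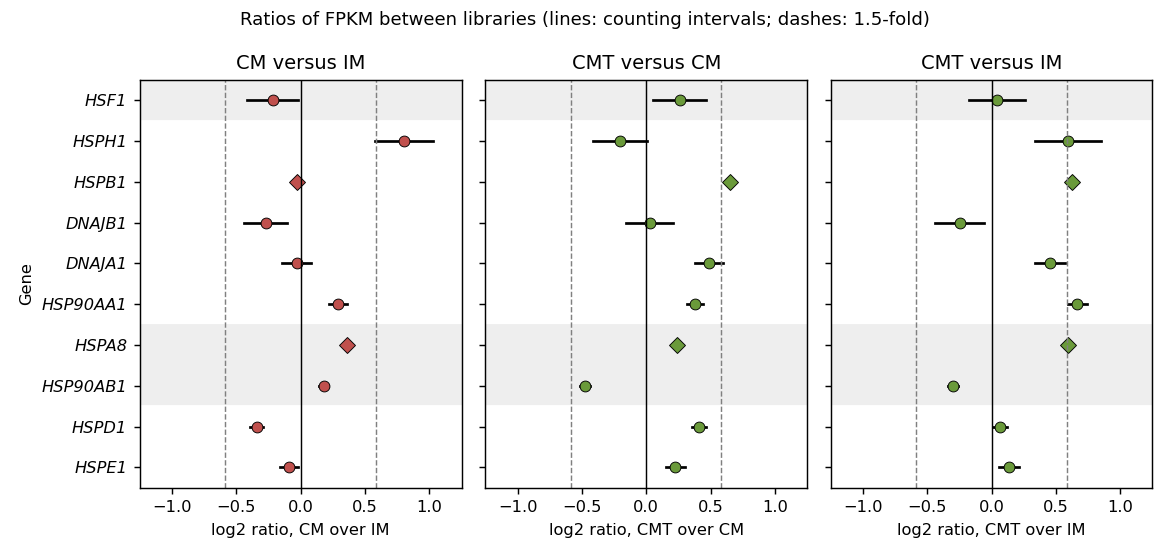
Log2 ratios of FPKM between libraries for the 10 genes, with 95% counting intervals as lines and 1.5-fold as dashes. Circles have an interval, and diamonds (HSPB1 and HSPA8) have none. HSPH1 was past 1.5-fold in CM versus IM, HSPB1 in CMT versus CM, and HSPH1, HSPB1, HSP90AA1 and HSPA8 in CMT versus IM, while the signs of HSF1, HSPB1, DNAJB1, DNAJA1 and HSPE1 in CM versus IM and of DNAJB1, HSPA8 and HSPE1 in CMT versus CM depended on the scaling.

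In CM versus IM, 1 of the 10 genes (HSPH1, higher) passed 1.5-fold, against 23.2% of the 15613 mRNA features tested, 11.1% higher and 12.1% lower. The median log2 ratio of the 10 genes was -0.030, and 4 were higher and 6 lower in the deposited values. With equal recovered reads, the background was 28.4%, 22.0% higher and 6.42% lower, 2 genes passed (HSPH1 and HSPA8), and 9 of the 10 were above 0. Under all 5 scalings HSPH1, HSP90AA1, HSPA8 and HSP90AB1 were higher in CM than in IM and HSPD1 was lower. The log2 ratio of HSPD1 was only -0.062 with equal recovered reads. The other 5 genes changed sign.

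In CMT versus CM, 1 of the 10 genes (HSPB1, higher) passed 1.5-fold, against 25.7% of the mRNA features tested, 12.1% higher and 13.5% lower. The median log2 ratio of the 10 genes was 0.25, with 8 higher and 2 lower. With equal recovered reads, the background was 29.2%, 6.82% higher and 22.4% lower, the median of the 10 genes was 0.011, and HSP90AB1, lower, passed in place of HSPB1. Under all 5 scalings HSF1, HSPB1, HSP90AA1, DNAJA1 and HSPD1 were higher in CMT than in CM and HSPH1 and HSP90AB1 were lower. The log2 ratio of HSF1 was only 0.013 with equal FPKM column sums.

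In CMT versus IM, 4 of the 10 genes passed 1.5-fold, all higher (HSPH1, HSPB1, HSP90AA1 and HSPA8), against 16.8% of the mRNA features tested, 6.67% higher and 10.1% lower. The median log2 ratio of the 10 genes was 0.29. With equal recovered reads the background was 16.7%, 7.49% higher and 9.22% lower, and the same 4 genes passed. Of these 4 genes, HSPH1 and HSPA8 lay at 1.51-fold and HSPB1 at 1.54-fold, and upper quartile scaling left 2 of them past the threshold, HSPB1 and HSP90AA1. The 8 genes higher and the 2 lower (DNAJB1 and HSP90AB1) kept their direction under all 5 scalings. HSF1 came nearest to no difference, at a log2 ratio of 0.0062 with upper quartile scaling. The 3 comparisons share libraries, so their values are not independent of each other.

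**Figure D4:**
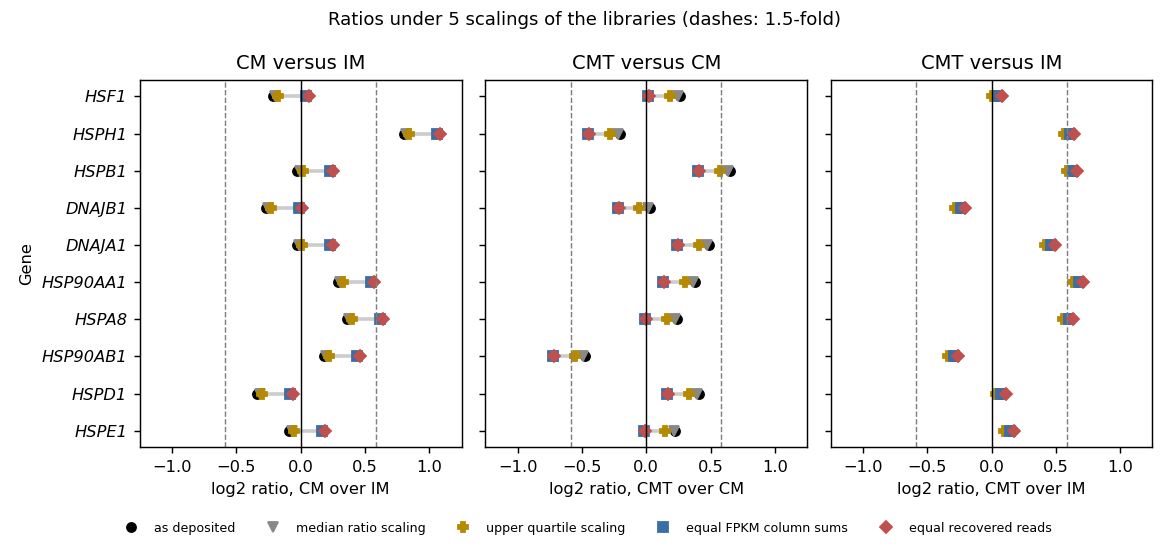
Log2 ratios of the 10 genes between libraries under 5 scalings, with 1.5-fold as dashes. Scaling to equal reads or equal column sums moved CM versus IM to the right by up to 0.28 and CMT versus CM to the left by up to 0.25, and 5 and 3 genes there changed sign under at least 1 scaling, while 0 genes changed sign in CMT versus IM.

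The heat-inducible genes were set against the constitutive ones as the difference of their median log2 ratios, which does not depend on the scaling. The median of the 5 inducible genes minus that of HSPA8 and HSP90AB1 was -0.29 in CM versus IM, 0.50 in CMT versus CM and 0.45 in CMT versus IM. In CMT versus CM, HSPB1, DNAJA1 and HSP90AA1 were the inducible genes above DNAJB1 and HSPH1, and the constitutive genes moved apart, at log2 ratios of 0.24 for HSPA8 and -0.48 for HSP90AB1. The result depends on 1 gene, since with DNAJA1 counted as constitutive the differences were -0.048, -0.035 and 0.16. Summed over genes, the inducible FPKM was 1.24 times the constitutive in IM, 1.17 times in CM and 1.72 times in CMT, and HSP90AA1 was the largest part of the inducible sum. The summed FPKM of all 10 genes was 13182 (IM), 13415 (CM) and 15769 (CMT).

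The genes that work with these chaperones were taken from 9 lists with 83 genes, of which 73 features were found and 68 reached the FPKM minimum. In CM versus IM, 5 of the 68 (7.35%) were past 1.5-fold higher and 7 (10.3%) lower, against 11.1% and 12.1% of all mRNA features tested, with a median log2 ratio of 0.040. In CMT versus CM, 9 (13.2%) were higher and 2 (2.94%) lower, against 12.1% and 13.5% (median 0.15). In CMT versus IM, 8 (11.8%) were higher and 1 (1.47%) lower, against 6.67% and 10.1% (median 0.16). With equal recovered reads the split was 15 higher (22.1%) and 5 lower (7.35%) in CM versus IM, against 22.0% and 6.42%, and 6 higher and 6 lower (8.82% each) in CMT versus CM, against 6.82% and 22.4%. The 5 genes past the threshold upward in CM versus IM (HSPA1L, HSPA4L, DNAJB5, BAG2 and BAG4, named after their values were seen) had an FPKM of at most 16.1 in any library. These 5 were also among the 8 higher in CMT versus IM, where an FPKM minimum of 10 left HSPA13, HSPB2 and CRYAB. The counting intervals of HSPA1L, BAG2 and BAG4 in CMT versus IM included no difference.

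BAG3, FKBP5 and ST13, partners of HSP70 or HSP90, were lowest in CM under all 5 scalings. BAG3 is an HSF1 target that links HSP70 to small heat shock proteins and to autophagy. Its FPKM was 909, 284 and 716 in IM, CM and CMT, with log2 ratios of -1.68 (CM to IM) and 1.33 (CMT to CM). FKBP5, an immunophilin in HSP90 complexes with steroid receptors, had an FPKM of 427 (IM), 106 (CM) and 370.3 (CMT), with log2 ratios of -2.01 and 1.81. ST13 (Hip), which stabilises the client-bound state of HSP70, had an FPKM of 2165, 1177 and 2172 in IM, CM and CMT, with log2 ratios of -0.88 and 0.88. These genes passed 1.5-fold in both comparisons under all 5 scalings. FKBP5 was the 1 gene of the 14 HSP90 co-chaperones past the threshold in CM versus IM, against 23.2% of the mRNA features tested. The median log2 ratio of that list was 0.15. The lowest log2 ratio of CM to IM among the 10 heat shock genes was -0.34, that of HSPD1.

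The other small heat shock proteins gave 4 measured genes, of which HSPB2 and CRYAB were highest in CMT and lowest in CM. CRYAB (alpha-B crystallin) had an FPKM of 1238 (IM), 741 (CM) and 1971 (CMT), and HSPB2 had 454, 191 and 695. CMT to CM was 1.41 on the log2 scale for CRYAB and 1.86 for HSPB2. These neighbouring genes overlap in the RefSeq annotation, and without strand their reads cannot be told apart, so that they may be a single signal. HSPB8, named after its values were seen, was instead highest in CM, with an FPKM of 237 (IM), 317 (CM) and 258 (CMT). HSPB1, also a small heat shock gene, differed from them in that IM and CM were nearly equal.

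Of the other HSP70 genes, a stress-inducible one is listed in these tables as HSP70.2, for which RefSeq gives the synonyms HSPA1A and HSPA1B. Its FPKM was 486, 392 and 634 in IM, CM and CMT, with log2 ratios of -0.31 (CM to IM), 0.69 (CMT to CM) and 0.38 (CMT to IM). The deposited order was that of HSPB1 and DNAJA1, whose sign in CM versus IM changed with the scaling. The directions of HSP70.2 held under all 5 scalings, but its log2 ratio of CM to IM was only -0.030 with equal recovered reads. HSP70.2 overlaps HSPA1L in the RefSeq annotation, a gene with an FPKM of at most 3.64. A separate feature named only HSP70, described at the end, was instead highest in CM. HSPA14, a ribosome-associated HSP70, had an FPKM of 145 (IM), 48.2 (CM) and 131 (CMT), with log2 ratios of -1.59 and 1.44. HSPA13 had an FPKM of 20.5, 29.7 and 39.0 in IM, CM and CMT, with a log2 ratio of CMT to IM of 0.93. The prefoldin subunit VBP1 had 213, 162 and 246, and its ratio of CMT to CM was 0.60 on the log2 scale. It was the only one of 5 prefoldin genes past 1.5-fold, against 25.7% of the mRNA features tested in that comparison. Scaling to equal reads or column sums left VBP1 and HSP70.2 under the threshold, and upper quartile scaling did so for VBP1.

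The chaperonin TRiC, which folds actin and tubulin, stayed within 1.5-fold in the deposited values. Of its 8 subunits 0 passed in any comparison, against 23.2% (CM to IM), 25.7% (CMT to CM) and 16.8% (CMT to IM) of all mRNA features tested. The median log2 ratios of the subunits were 0.13, 0.13 and 0.19 in the same order. In the deposited values, the other mitochondrial chaperones and proteases gave 0 of 9 past 1.5-fold in any comparison, beside the same shares of all features. Their medians in the deposited values were -0.20, 0.26 and 0.044. HSPD1 and HSPE1 had medians of -0.22, 0.32 and 0.10 in the same comparisons. Scaling to equal recovered reads would add 0.28 to the CM to IM medians and take 0.24 from the CMT to CM medians. The CM to IM medians of these mitochondrial genes would then change sign. Among the 9, DNAJC19 (higher in CM versus IM) and GRPEL2 (lower in CMT versus CM) would then lie just past 1.5-fold.

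The chaperones of the endoplasmic reticulum, which a separate stress response controls, had a median log2 ratio of CMT to IM of 0.87, against 0.29 for the 10 heat shock genes. Of 13 genes, 0 passed 1.5-fold in CM versus IM, against 23.2% of the mRNA features tested. Past 1.5-fold higher were 6 in CMT versus CM, against 12.1%, and 10 in CMT versus IM, against 6.67%. The medians in the first 2 comparisons were 0.12 and 0.55. SDF2L1, a partner of the chaperone BiP, had an FPKM of 204 (IM), 181 (CM) and 1541 (CMT). PDIA4, a disulfide isomerase, had 1051, 1141 and 3218 in IM, CM and CMT. DNAJB11 had 133, 143 and 359, and PDIA6 had 1535, 1342 and 2943. The largest ratio of CMT to IM among the 10 heat shock genes was that of HSP90AA1, 0.67 on the log2 scale, against 2.92 for SDF2L1. Whether the lists differ was not tested.

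**Figure D5:**
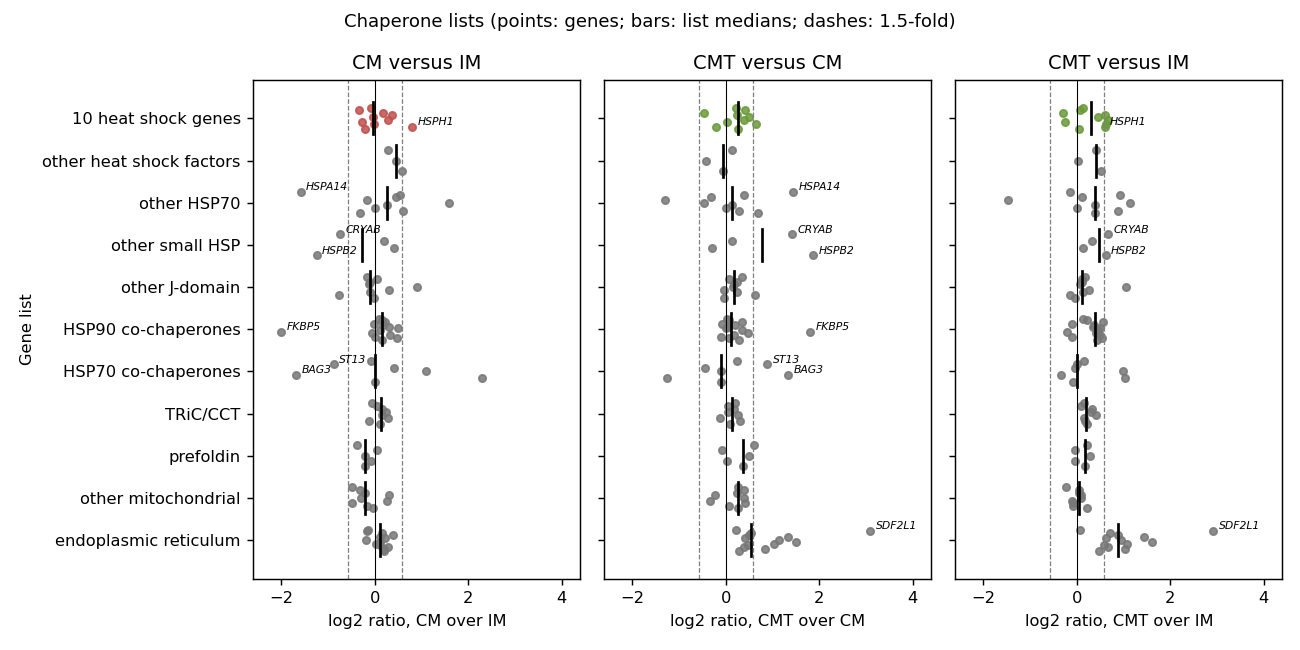
Log2 ratios between libraries of the genes in each chaperone list (points), with list medians as bars and 1.5-fold as dashes. In CM versus IM, BAG3, FKBP5, HSPA14, HSPB2, CRYAB and ST13 lay below -0.58, and in CMT versus CM the same named genes lay above 0.58, as did SDF2L1. Scaling to equal reads would move all points by 0.28 to the right in CM versus IM and by 0.24 to the left in CMT versus CM, and CRYAB then lies within 1.5-fold in CM versus IM.

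Other genes moved with these libraries. The hepatocyte markers were abundant in every library, and 9 of 10 were found. In the deposited values 8 were lower in CM than in IM, 2 of them past 1.5-fold, against 12.1% of all mRNA features tested. In CMT versus CM 8 were higher, 3 of them past 1.5-fold, against 12.1% of those features. The summed FPKM of the hepatocyte markers was 1042545 (IM), 760614 (CM) and 807670 (CMT). ALB made up most of this sum, and its level in CMT was 0.935 of that in CM. Of 9 leukocyte markers 6 were higher in CM than in IM in the deposited values, and 7 were lower in CMT than in CM. Past 1.5-fold in CMT versus CM were 2 higher and 4 lower, against 12.1% and 13.5% of all mRNA features tested. In CM versus IM they were 0 higher and 1 lower, against 11.1% and 12.1%. The T cell markers CD3E, CD2 and CD8A, named after their values were seen, were highest in CM and lowest in CMT. CD3E had an FPKM of 53.7 (IM), 79.7 (CM) and 39.0 (CMT), and CD8A had 59.5, 82.5 and 33.5. The macrophage markers MARCO and CD163, named after their values were seen, went the other way and were lowest in CM, as were BAG3, FKBP5 and ST13. MARCO had an FPKM of 414 (IM), 82.8 (CM) and 317 (CMT), and CD163 had 1305, 909 and 1386. CD14, also named after its values were seen, was lower in CM than in IM in the deposited values, but lowest in CMT. With equal recovered reads or equal column sums, CD14 was instead higher in CM than in IM. Its FPKM was 2374 (IM), 2090 (CM) and 1945 (CMT), the largest part of the leukocyte sum in each library. All 9 leukocyte markers had a summed FPKM of 4481, 3594 and 3972 in IM, CM and CMT. The 2 cholangiocyte markers measured were both higher in CM, with sums of 40.0 (IM), 68.9 (CM) and 45.7 (CMT). Stellate cell markers summed to 1453, 1554 and 1301, and endothelial markers to 883, 723 and 852. None of these markers was at 0. The marker sums are of deposited values. Scaling to equal recovered reads would add 0.28 to every log2 ratio of CM to IM. The IM and CM sums of leukocyte and of endothelial markers would then lie close together. Immediate early genes, which respond within minutes to handling and other stimuli, summed to an FPKM of 3236, 2419 and 1351 in IM, CM and CMT. In CMT versus IM 5 of 5 of these genes were past 1.5-fold lower, against 10.1% of all mRNA features tested. Their courses differed, as 3 of them named after their values were seen show. EGR1 had an FPKM of 417 (IM), 147 (CM) and 57.9 (CMT), FOS was highest in CM with 630.2, 842 and 145, and JUNB was lowest in CM with 322, 124 and 167. The part of cell composition and of tissue handling in the heat shock gene values was not tested.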

How the data were processed

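The authors isolated total liver RNA, pooled it in equal amounts by group, and sequenced poly-A libraries (TruSeq kit) as paired-end reads. They mapped the reads to the pig genome with TopHat at default settings. The program that counted reads and the annotation are not given in the sources used here. Each deposited table holds the FPKM of 34579 features in 1 library, 22945 of them mRNA, and 23 features had a date instead of a symbol. No library was left out.

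Reads were recovered as the smallest whole numbers that explain a gene's FPKM in the 3 libraries, with a transcript length of up to 10000 bases and library divisors of 2.51 (IM), 3.42 (CM) and 2.04 (CMT). A common factor can be lost, which understates the reads and widens the intervals. Both mates of a pair may have been counted, which does the reverse, so that intervals are approximate. Among the heat shock genes given an interval, recovered lengths ran from 284 bases (HSPE1) to 2827 (HSP90AB1), with 502 for HSP90AA1 and 1336 for HSPH1. Whether these are full transcript lengths was not tested. An FPKM here is 12.8, 10.6 and 12.5 times that expected from the recovered read totals, so levels are relative. On 3000 genes simulated as whole reads in 3 libraries, the number of reads came back unchanged for 92.2%, and for 100% when a lost common factor is allowed. Shared or fractional reads were not simulated.

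Ratios of FPKM were taken without a pseudocount for each pair of groups. With 1 library per group no p-value was computed. The members and the gene lists were chosen with earlier results of these data known. The genes named outside the 10 were, in each chaperone list, those reaching FPKM 10 in every library and 1.5-fold in any comparison, at most 4 per list, and the 5 mRNA features above FPKM 100 that lay nearest to the median of the inducible genes. Genes outside this rule were named after their values were seen. They were HSF2, HSF4, HSBP1, HSPB8, HSPA1L, HSPA4L, DNAJB5, BAG2, BAG4, DNAJC19, GRPEL2, the HSP70 feature and single marker genes. Of the listed genes outside the 10, 15 were not found and were not analysed here. A planned search of promoters for heat shock elements was not run. Neither promoter nor protein sequences were used here. Alternatives were 4 scalings, a pseudocount of 1, a threshold of 2-fold, an FPKM minimum of 10 or none, and other class memberships. Reading HSPB1 from LOC100624812 and matching by exact symbol only were added after seeing the data. Computations used matplotlib 3.10.9, scipy 1.17.1, pandas 2.3.3 and numpy 2.4.6 under Python 3.11.15.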

Additional observations from a re-analysis of the deposited data

How the results depend on the processing

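No paired analysis was possible because each group is 1 pooled library. The 1 heat shock gene past 1.5-fold in CM versus IM became 2 with equal FPKM column sums or equal recovered reads and 0 at 2-fold. The 1 in CMT versus CM became 0 with upper quartile scaling, at 2-fold, or with exact symbols only, which drops HSPB1. The 4 in CMT versus IM became 2 with upper quartile scaling, 0 at 2-fold, and 3 with HSPB1 read from LOC100624812, at 1.495-fold, or with exact symbols only. For the other chaperone lists, the 12 genes in CM versus IM became 20 with equal recovered reads, 7 at 2-fold and 6 with an FPKM minimum of 10, the 11 in CMT versus CM became 7 at 2-fold, and the 9 in CMT versus IM became 4 at 2-fold and 3 with the minimum of 10. Over all mRNA features, the 3621, 4006 and 2618 in the 3 comparisons, in the order above, became 1464, 1744 and 959 at 2-fold, and 2027, 2303 and 1088 with the minimum of 10. The inducible minus constitutive differences became -0.048, -0.035 (reversed) and 0.16 with DNAJA1 counted as constitutive, and 0.31 in CMT versus IM with HSPD1 and HSPE1 counted as inducible. A stricter threshold or minimum leaves fewer genes by construction. The cause of the other changes was not tested. Of 345 values of single genes under the alternatives, 128 moved beyond their counting interval, or moved at all where they had none, and 0 reversed a ratio past 1.5-fold. Neither a pseudocount of 1 nor the absence of an FPKM minimum moved a count by more than 1.5 times.

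Depth limits the low genes most. HSPH1 rests on 232 to 550 recovered reads, and its ratio of CMT to IM, 1.51 (1.27 to 1.81), cannot be placed on either side of the threshold by counting error alone.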

Other observations

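The mRNA features whose log2 ratios of CM to IM and CMT to CM lay nearest to the median of the inducible genes, among 4537 features above FPKM 100 in every library, were RAB2A, AGA, LOC100622998, LOC100628219 and PAPOLA. Nearness was the Euclidean distance of the 2 log2 ratios, and 119 features lay within 0.1. RAB2A, a small GTPase of the early secretory pathway, had an FPKM of 387, 380.4 and 492 in IM, CM and CMT. PAPOLA, the nuclear poly(A) polymerase, had 201 (IM), 196 (CM) and 259 (CMT). AGA, a lysosomal glycosylasparaginase, had 201, 195 and 253 in IM, CM and CMT. The likeness rests on 3 libraries and describes these values only.

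A feature named only HSP70, which no table here ties to a gene, had an FPKM of 27.7 (IM), 50.9 (CM) and 36.8 (CMT), from 38, 95 and 41 reads. CM was 1.83-fold higher than IM (1.25 to 2.75). CMT to IM was 1.33, with an interval of 0.833 to 2.12 that includes no difference.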
